A study of Rattus norvegicus with 9 samples.

Results

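Short H3K4me1 regions were taken here as deposited H3K4me1 regions under 1000 bp, and the accessible regions described are those under 1500 bp that overlapped them by at least 1 bp and overlapped no longer H3K4me1 region. Of 186719 accessible regions in the rat dorsal root ganglion (DRG), 24565 (13.2%) met this rule, which uses position and length but no accessibility value. They make up 9.05 Mb in the rn6 assembly and lie on 21 chromosomes. The rule was set against accessible regions of the same length limit in mid-length H3K4me1 regions (1000 bp to under 3000 bp, 22375 accessible regions), in broad H3K4me1 regions (at least 3000 bp, 10400) and outside H3K4me1 (128150).

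The animals were adult female Sprague-Dawley rats that either had the sciatic nerve loosely tied, a surgical model of neuropathic pain called chronic constriction injury (CCI), or were left unoperated (naive). No sham surgery group was used here, so the effects of nerve constriction and of surgery cannot be told apart. The L4-L6 DRGs of the injured side were taken 14 days after CCI, and the same ganglia were taken from naive rats. Each ATAC-seq library came from a single animal (2 CCI rats, 3 naive rats), and each of the 2 CCI and 2 naive H3K4me1 ChIP-seq samples pooled 3 rats. H3K4me1 was deposited as 1 merged list of positions without a level, so a short H3K4me1 region is a region of either group and its own response to CCI was not measured here. Each library holds whole ganglia, and fewer cells of a type and less access per cell cannot be told apart.

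The DRG holds the cell bodies of sensory neurons together with satellite glia, Schwann cells, endothelial cells, fibroblasts and immune cells. ATAC-seq counts the places where the transposase Tn5 can insert into DNA, and these mark nucleosome-poor sequence such as promoters and enhancers. H3K4me1, the monomethylation of lysine 4 on histone H3, is a mark of enhancers and of the flanks of promoters. Broad domains of the mark often surround clusters of regulatory elements, and short domains are often single, distal elements.

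Some of these accessible regions carry sequence that can be shown. The study cloned 7 candidate regions into luciferase reporter plasmids, constructs A to G, and the accessible regions under 5 of them (B to F) were in short H3K4me1 regions. The primers are printed because their genomic parts mark the ends of the DNA that was tested. Capitals mark the genomic part, and the lower-case tail carries the MluI, NheI or BglII site used for cloning.
Construct B forward: atcaacgcgtCTGGGAGAAGGGAACAGCC
Construct B reverse: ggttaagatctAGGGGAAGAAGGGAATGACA
Construct C forward: atcaacgcgtACCCCTCAGCTCTTCTTCAC
Construct C reverse: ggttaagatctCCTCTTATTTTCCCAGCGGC
Construct D forward: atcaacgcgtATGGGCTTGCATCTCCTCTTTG
Construct D reverse: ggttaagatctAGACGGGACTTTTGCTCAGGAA
Construct E forward: atcagctagcTGCCACCACTGTCAGACTG
Construct E reverse: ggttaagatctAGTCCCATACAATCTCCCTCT
Construct F forward: atcagctagcGCCTGGTGAGAAAACAAGCA
Construct F reverse: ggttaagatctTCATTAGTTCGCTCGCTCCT

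Constructs B, C and D had the same start and end as 1 accessible region each, at chr3:143254480-143255452, chr16:27198104-27198721 and chr2:57941334-57941850 (rn6). Construct F shared 589 bp, 89.9% of its length, with the accessible region at chr10:86036954-86037667. Construct E shared only 158 bp, 38.3% of its length, with the accessible region at chr8:128446162-128446368.

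The accessible regions in short H3K4me1 regions were small and scattered. Their median length was 293 bp (quartiles 201 and 464 bp), against 423 bp in mid-length and 533 bp in broad H3K4me1 regions. The median length of the H3K4me1 region they overlapped was 559 bp. Almost all of them, 24417, overlapped 1 H3K4me1 region and 148 overlapped 2. Most short H3K4me1 regions held no accessible region: of 158638 such H3K4me1 regions, out of 211440 on the list, 23436 (14.8%) overlapped one, against 40.4% of mid-length and 90.6% of broad H3K4me1 regions. Longer regions cover more bases, and this share was not corrected for length. The distance to the next accessible region had a median of 3662 bp, against 887.5 bp in broad H3K4me1 regions, and 28.7% had a neighbor within 1 kb.

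Accessibility was often wider than the mark or offset from it. Only 30.2% of these accessible regions lay wholly inside their H3K4me1 region, against 95.7% in broad H3K4me1 regions. In 28.9% of cases the mark covered under 50% of the accessible region, in 26.7% the accessible region was longer than the mark, and in 26.4% its center fell outside it. The shares follow in part from the length rule, since a short mark has less room to hold an accessible region.

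Accessibility values are normalized reads, that is, reads per region divided by 1 scale factor per library. The 5 libraries held 4633807 to 13248437 recovered reads in all accessible regions, which left a median of 22 and 29 reads per accessible region (CCI rats) and of 39, 12 and 19 (naive rats) in short H3K4me1 regions. Naive rat 2 was the shallowest library, and 908 of the 24565 regions (3.70%) were at its lowest value of 1 read. The lowest value was 1 read in all 5 libraries, so it may be a floor that also stands for no reads. The libraries differ in more than depth: CCI rat 1 stood above CCI rat 2 and the naive rats in H3K4me1 regions of every length class, and the main counts are also given without it. Calls by chromosome, by length of the mark and by cluster are given with it only.

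Per kilobase of accessible region, the median signal in short H3K4me1 regions was 50.8 and 45.8 normalized reads for CCI rats 1 and 2 and 44.8, 42.1 and 42.4 for naive rats 1 to 3. On the deposited scale factors, both CCI rats were above all naive rats. The difference of the means was 5.21 (48.3 ± 3.53, SD, n = 2, against 43.1 ± 1.47, SD, n = 3, two-sided exact permutation p = 0.1), and 0.1 is the smallest p that 2 against 3 rats can give. In broad H3K4me1 regions the same measure ran from 89.8 to 125 normalized reads per kb, and outside H3K4me1 from 32.3 to 39.7. Accessible regions in short H3K4me1 regions thus had, in each rat, a signal per length between that of unmarked regions and that of mid-length H3K4me1 regions. The comparison of CCI with naive rats depends on the scale factors, and the signal per kilobase was not computed with others. With median-of-ratios factors over the accessible regions that overlap H3K4me1, the median log2 fold change in short H3K4me1 regions was -0.00, against 0.12 with the deposited factors.

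**Figure D1:**
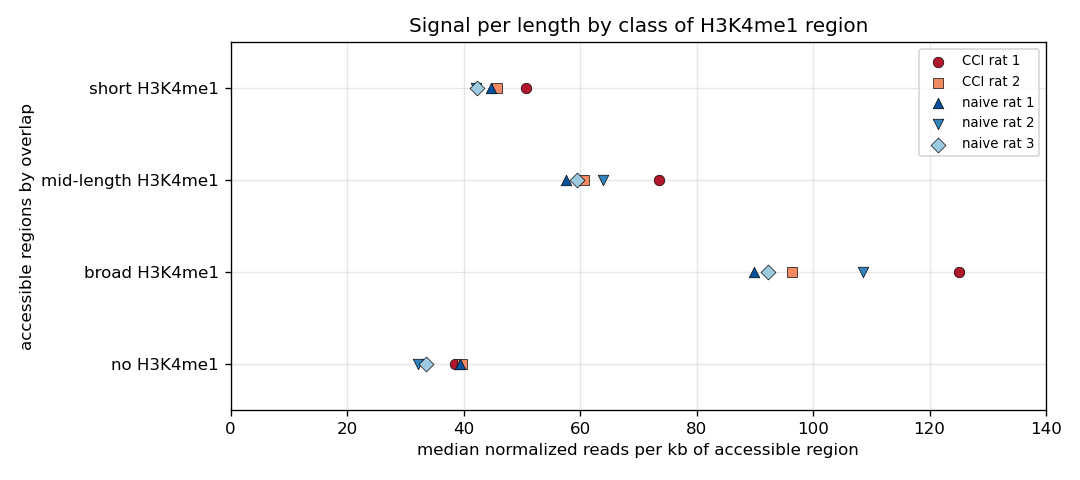
Median normalized reads per kb of accessible region (x axis) by the class of H3K4me1 region it overlapped (y axis), with 1 point per rat. In short H3K4me1 regions the 5 rats span 42.1 to 50.8 with both CCI rats on top, whereas in broad H3K4me1 regions naive rat 2 (109) lies above CCI rat 2 (96.3). Values use the deposited scale factors, on which the order of the rats depends.

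The level relative to other classes gave no difference between the groups that this design can call. On the log2(value + 1) scale, the median in short H3K4me1 regions minus that in broad ones was -1.98 and -1.74 in the CCI rats and -1.70, -2.03 and -1.76 in the naive rats, and the groups overlapped (difference -0.03, exact permutation p = 0.9). Against mid-length H3K4me1 regions the difference between groups was 0.03 (exact permutation p = 0.9), and against unmarked regions -0.05 (exact permutation p = 0.6). The share of a library's reads that fell in short H3K4me1 regions was 11.1% and 11.7% in the CCI rats and 12.0%, 11.5% and 11.6% in the naive rats, and these overlapped too (difference -0.321 percentage points, exact permutation p = 0.5).

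A contrast appeared where regions of like signal were compared, an approach chosen after the data had been seen. Within 5 bins of mean signal, each with the same number of fitted regions, the median in short minus that in broad H3K4me1 regions was -0.33 in CCI rat 1 and -0.20 in CCI rat 2, against -0.04, -0.15 and -0.11 in the naive rats. Both CCI rats were below all naive rats (difference -0.16, exact permutation p = 0.1, the smallest the design allows). Against mid-length H3K4me1 regions the values were -0.20 and -0.12 in the CCI rats and -0.01, -0.11 and -0.10 in the naive rats, which did not overlap either (difference -0.09, exact permutation p = 0.2).

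Individual regions were compared between CCI and naive rats with limma on log2(value + 1), fitted on all 58445 accessible regions that overlap H3K4me1, and a region was called at an unadjusted two-sided p below 0.01. In short H3K4me1 regions 1007 of 24565 (4.10%) were called, below the 5.25% called over all regions fitted. Of these, 559 were higher after CCI (the background over all regions fitted is 3.36%) and 448 lower (background 1.89%), so that 55.5% of the calls were higher. At an adjusted p below 0.05 the balance was the other way, with 53 higher (background 0.334%) and 98 lower (background 0.416%), or 151 in all (background 0.749%). For comparison, 5.39% of accessible regions were called in mid-length and 7.64% in broad H3K4me1 regions, and 60.2% and 79.1% of those calls were higher. Without CCI rat 1 this order of the classes did not hold: 17.1% of the calls were higher in short, 9.18% in mid-length and 19.0% in broad H3K4me1 regions. The shares of regions called were not matched for signal. Shares by bin of signal are given below, and the order of the classes differed between bins.

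The median log2 fold change over the 24565 regions was 0.12, against 0.15 over all regions fitted and 0.22 in broad H3K4me1 regions. Both CCI rats were above all naive rats in 4614 regions (18.8%, background 20.4%) and below them in 2828 (11.5%, background 11.1%). These shares were close to the background.

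The calls depended on single libraries and on the scaling, the higher ones most. Without CCI rat 1, 99 regions were called higher (background 0.46%) and 479 lower (background 2.98%), and 74 of the 559 higher and 276 of the 448 lower calls were shared. In a further setting, the median log2 value of all accessible regions in the surrounding 1 Mb window was subtracted in every rat. After this, 148 were called higher (background 0.382%) and 987 lower (background 4.37%), which kept 53 of the 559 higher and 387 of the 448 lower calls. Of all accessible regions, 68.6% were under 1500 bp and outside H3K4me1, where signal was lower. The median fold change was -0.0818 in this setting, and the background moved to lower too. How far the lost higher calls and the kept lower calls follow from the setting itself was not tested. With median-of-ratios factors over the fitted regions, 350 were called higher (background 3.13%) and 1029 lower (background 5.9%), and the median fold change moved by over 0.1 to -0.00. Without naive rat 1, the deepest library, 371 were called higher (background 1.64%) and 216 lower (background 0.891%). DESeq2 on recovered reads called 151 higher (background 1.56%) and 215 lower (background 1.13%), and edgeR 665 higher (background 4%) and 438 lower (background 1.76%).

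The direction of the calls varied with the level of accessibility. Over the same 5 bins of mean signal, from lowest to highest, 0.501%, 3.14%, 6.63%, 7.90% and 8.45% of the regions in short H3K4me1 regions were called. The shares called were 0.649%, 4.34%, 7.95%, 7.54% and 5.48% in mid-length H3K4me1 regions. In broad ones they were 0.487%, 3.58%, 9.60%, 9.01% and 7.61%. In short H3K4me1 regions, the share of the calls that was higher after CCI was 57.9%, 72.4%, 64.2%, 42.0% and 24.4%. The highest bin held 923 of the accessible regions in short H3K4me1 regions, of which 19 were called higher and 59 lower. In broad H3K4me1 regions 77.6% of the calls in the highest bin were higher, and in mid-length ones 40.5%. This gap between the classes rested on CCI rat 1 and on the scaling. Without CCI rat 1, 2.22% of the calls in the highest bin were higher in short (2 higher, 88 lower), 1.61% in mid-length and 8.30% in broad H3K4me1 regions. With the 1 Mb window median removed, the shares in short and broad H3K4me1 regions were 2.68% and 2.31%. Within short H3K4me1 regions, the shares over the 5 bins without CCI rat 1 were 16.7%, 36.8%, 23.1%, 14.2% and 2.22%. No test was run on these shares, because regions are not replicates. Region length moved together with signal: 76.1% of calls were higher among regions of 150 to 200 bp (35 of 46) and 40.9% among those over 800 bp (52 of 127), and the part of length and of level in the direction was not tested apart. Without CCI rat 1 the order by length did not hold, with 0 higher and 15 lower among the shortest and 14 higher and 84 lower among the longest.

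**Figure D2:**
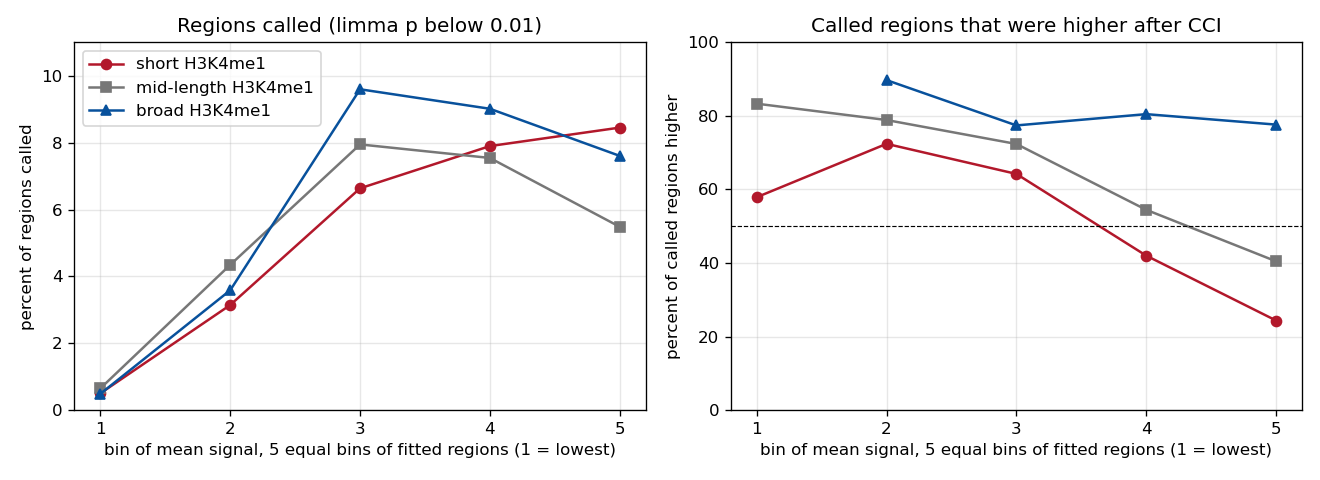
Left, percent of accessible regions called at limma p below 0.01 by bin of mean signal (x axis, 5 equal bins of the fitted regions, 1 is lowest) for short, mid-length and broad H3K4me1 regions. Right, percent of those calls that were higher after CCI, shown where at least 20 regions were called, with a dashed line at 50%. The line for short H3K4me1 regions falls to 24.4% in the highest bin and that for broad ones is at 77.6%, whereas without CCI rat 1 these shares were 2.22% and 8.30%.

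The share of regions called differed little with the length of the mark within the rule. Of regions in H3K4me1 regions of up to 400 bp, over 400 bp, over 600 bp and over 800 bp, 4.02%, 4.12%, 4.07% and 4.23% were called, and 50.6%, 57.8%, 57.5% and 57.8% of the calls were higher. The median log2 fold change rose with the length of the mark, at 0.083, 0.112, 0.138 and 0.142. At the edge of the rule, the 2645 accessible regions in H3K4me1 regions of 900 bp or more had a median log2 fold change of 0.13 and a median signal of 13.5 normalized reads, and the 2114 just outside it, at 1000 to 1099 bp, had 0.16 and 14.5. At the other edge, 36 accessible regions of 1400 bp or more had a median log2 fold change of -0.07, and 29 of 1500 to 1599 bp in short H3K4me1 regions were left out, with -0.13.

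Calls were uneven over the chromosomes. On chromosome 10 the median log2 fold change was 0.45 and all 68 called regions were higher, and on chromosome 12 it was 0.42 with 36 of 38 calls higher. On chromosome 2 the median was -0.03 and 64 of 82 calls were lower, and on chromosome X it was -0.10 with 14 of 17 lower. Calls by chromosome were not counted over all regions fitted, so the counts in this paragraph have no background. They are not read as a result about short H3K4me1 regions. All accessible regions of a chromosome, marked or not, moved alike: their median log2 difference was 0.49 on chromosome 10, 0.49 on chromosome 12 and -0.12 on chromosome X. Taken as deviations from the mean of the naive rats, the chromosome medians had an SD over 21 chromosomes of 0.147 in CCI rat 1 and 0.114 in CCI rat 2. For the naive rats, each set against the mean of the other naive rats so that it was not compared with itself, the SD was 0.0285 to 0.0574. With the 1 Mb window median removed, 2 regions on chromosome 10 were called higher and 14 lower. The cause of the chromosome pattern was not tested.

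**Figure D3:**
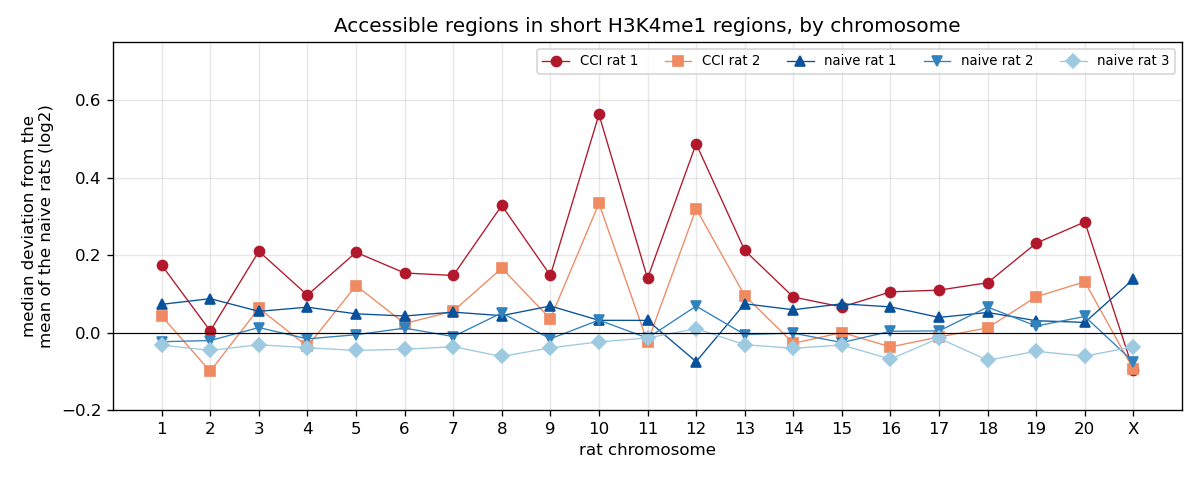
Median deviation of the accessible regions in short H3K4me1 regions from the mean of the naive rats (y axis, log2) for each chromosome (x axis), 1 line per rat. Both CCI rats peak on chromosome 10 (0.56 and 0.33) and chromosome 12, and the naive rats, which make up the mean they are compared with, lie between -0.08 and 0.14.

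The regions with the lowest p in each direction are given next. They were taken among called regions with at least 10 reads per library on average and with both CCI rats on 1 side of all naive rats, so their separation is part of how they were chosen. Genes are the nearest ones in the study's own annotation, and a nearest gene need not be the one a region acts on.

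Among these, the region with the lowest p lay nearest to Nr4a2, which encodes the orphan nuclear receptor Nurr1, at chr3:42139413-42139858. It had 16.69 (CCI rat 1) and 15.57 (CCI rat 2) normalized reads after injury, against 64.69, 66 and 48.63 in naive rats 1 to 3, and values for other regions follow the same order. Each naive rat had more than 2-fold the value of either CCI rat. The log2 fold change was -1.81 ± 0.30 (SE, limma adjusted p = 3.81e-05).

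The region nearest to Siah2, an E3 ubiquitin ligase, at chr2:148988972-148989502, had 16.02 and 12.82 normalized reads in the CCI rats and 55.87, 47 and 58.48 in the naive rats. Its log2 fold change of -1.83 ± 0.31 (limma adjusted p = 4.85e-05) stood against its surroundings, since the median difference of the 8 other accessible regions within 50 kb was 0.55. A region nearest to Khdrbs2, an RNA-binding regulator of splicing, at chr9:40443907-40444820, was alike in this: it had 29.37 and 26.55 normalized reads in the CCI rats and 73.19, 89 and 76.88 in the naive rats, and its 4 neighbors had a median difference of 0.57. Its log2 fold change was -1.48 ± 0.28 (limma adjusted p = 0.000718).

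Near Trps1, a GATA-type zinc finger repressor, the region had 6.01 and 13.28 normalized reads in the CCI rats and 36.92, 35 and 42.06 in the naive rats (log2 fold change -1.96 ± 0.34, limma adjusted p = 0.000142). Near Slc26a7, an anion transporter, it had 8.01 and 6.87 against 34.96, 41 and 26.29 (-2.04 ± 0.36, limma adjusted p = 0.000169). The region nearest to Ctsc, the lysosomal protease cathepsin C, was the most accessible of the 10, with 60.08 and 32.50 against 131.34, 123 and 107.77 (-1.42 ± 0.27, limma adjusted p = 0.000504). In all of these the lowest naive rat was well above the higher CCI rat.

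The largest fitted change of the 10 was at the region nearest to Grb14, an adaptor of the insulin receptor, with 0.67 and 5.49 normalized reads in the CCI rats and 12.09, 26 and 26.94 in the naive rats (-2.70 ± 0.51, limma adjusted p = 0.000632). The CCI rat 1 value is at the lowest of its library, 1 read, and the CCI rat 2 value is 12 reads, so the size of this change is poorly fixed. With each library left out in turn, it ran from -3.68 to -1.72. The other lower regions lay nearest to Hmgb2l1 (-1.69 ± 0.33) and to Mios (-1.84 ± 0.37), a component of the GATOR2 complex that controls mTORC1, with limma adjusted p of 0.000921 and 0.00161.

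A region at chrX:150612493-150613671, to which the annotation used here gave no gene, was named by the rule but rested on uneven naive rats. It had 9.35 and 8.70 normalized reads in the CCI rats and 25.81, 133 and 11.17 in the naive rats. Naive rat 2 was far above the other naive rats, naive rat 1 was above both CCI rats, and naive rat 3 was barely above CCI rat 1. Its log2 fold change of -1.81 ± 0.35 (limma adjusted p = 0.000899) was -0.85 and not called without naive rat 2. Limma without a trend gave an unadjusted p of 0.0529 there, and H3K4me1 covered 4.66% of the region.

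Of the 10 lower regions, 10 stayed called without CCI rat 1, 9 with the 1 Mb window median removed, 9 under each library left out in turn, and 10 by edgeR and 9 by DESeq2 on recovered reads.

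Among the higher regions, that nearest to Stac2, an adaptor protein of voltage-gated calcium channels, had 40.05 and 42.58 normalized reads in the CCI rats and 14.38, 8 and 11.17 in the naive rats. The CCI rats were close together and more than 2-fold above the highest naive rat. The log2 fold change was 1.83 ± 0.36 (limma adjusted p = 0.00125), and with the 1 Mb window median removed it was 1.25 with an unadjusted p of 0.0208, which is no longer a call. This is the region that construct F covers. It lies on chromosome 10, where the 14 other accessible regions within 50 kb had a median difference of 0.53.

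The region nearest to Zfp281, a zinc finger transcription factor, at chr13:53505314-53505858, had 56.74 and 59.06 normalized reads in the CCI rats and 16.99, 36 and 11.83 in the naive rats (1.53 ± 0.31, limma adjusted p = 0.0023). It stayed called with the window median removed (1.23) and without CCI rat 1. Near Slc39a11, a member of the ZIP family of zinc transporters, the region had 40.72 and 31.13 against 7.51, 11 and 9.86 (1.82 ± 0.38, limma adjusted p = 0.0034), and it too stayed called in both settings. Near Tgfbr2, the type II receptor for TGF-beta, it had 64.75 and 43.03 against 20.58, 19 and 18.40 (1.41 ± 0.32, limma adjusted p = 0.00809). The naive rats were close together there, whereas the CCI rats differed from each other.

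The remaining named regions that were higher lay nearest to Fmnl1, a formin that builds actin filaments (1.32 ± 0.30, limma adjusted p = 0.00844), Gga1, a clathrin adaptor of the Golgi (1.67 ± 0.39, adjusted p = 0.0124), Slc5a2, the sodium-glucose cotransporter SGLT2 (1.75 ± 0.42, adjusted p = 0.0156) and Fbxo34, an F-box protein (1.22 ± 0.30, adjusted p = 0.0212). None of the first 3 of these stayed called with the window median removed, and that nearest to Fbxo34 did. Without CCI rat 1, the regions nearest to Slc5a2 and Fbxo34 were not called. A region without a gene name at chr3:9220702-9221446 had 72.09 and 45.32 normalized reads in the CCI rats and 15.03, 41 and 20.37 in the naive rats, and it lost its call with the window median removed or without CCI rat 1.

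The lowest p among the higher regions belonged to one without a gene name at chr14:46620641-46621181, and it rested on a single naive rat. It had 89.45 and 95.23 normalized reads in the CCI rats and 59.46, 7 and 59.80 in the naive rats, the 7 being naive rat 2. The log2 fold change of 1.60 ± 0.29 (limma adjusted p = 0.000185) was 0.62 and not called without naive rat 2. DESeq2 on recovered reads gave an unadjusted p of 0.266, and limma without a trend gave 0.0721.

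Of the 10 higher regions, 7 stayed called without CCI rat 1, 5 with the 1 Mb window median removed and 6 under each library left out in turn. edgeR on recovered reads called 10 of them and DESeq2 9.

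**Figure D4:**
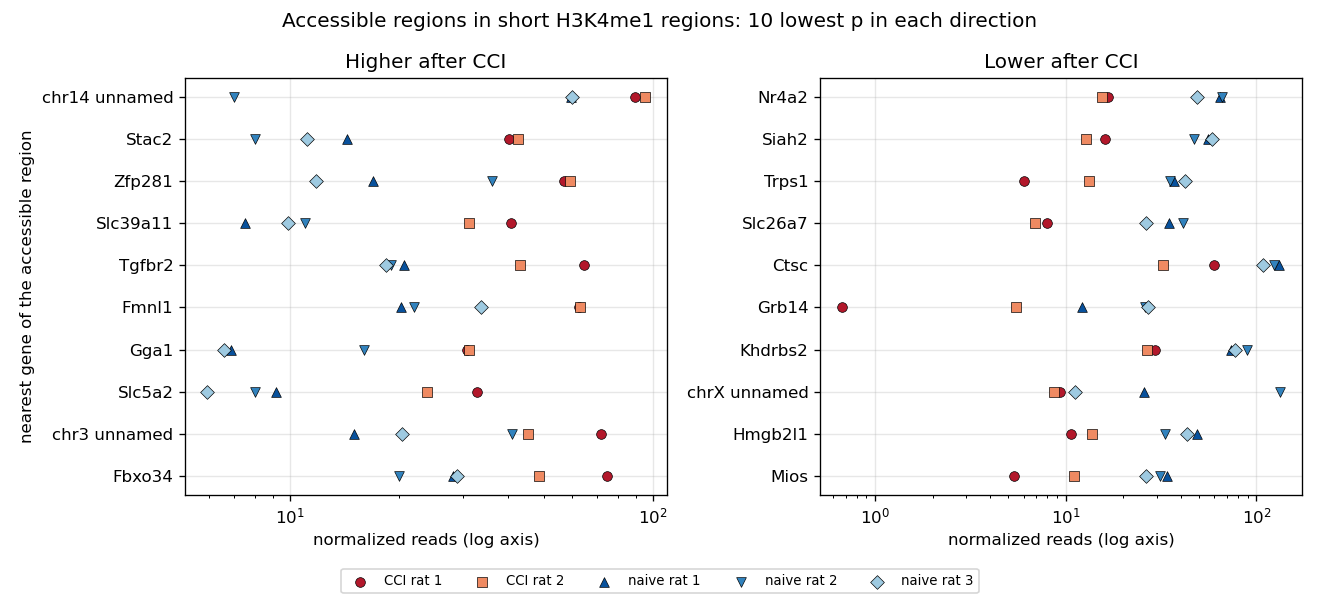
Normalized reads (x axis, log scale) in each rat for the 10 regions with the lowest limma p in each direction (y axis, by nearest gene). In most rows the CCI rats (red and orange) sit apart from the naive rats (blue). The exceptions are naive rat 2 at the unnamed chromosome 14 region (7, far below the other naive rats) and at the unnamed chromosome X region (133, far above them).

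The reporter-cloned regions were chosen by the study from these same libraries, so their direction is not independent evidence. The region of construct B lay nearest to Cst3, which encodes the protease inhibitor cystatin C, and had 59.41 and 70.96 normalized reads in the CCI rats and 154.22, 140 and 105.80 in the naive rats. All naive rats were above both CCI rats (-1.01 ± 0.26, limma adjusted p = 0.0309). With the 1 Mb window median removed it was -0.41 and not called, and the 5 other accessible regions within 50 kb had a median difference of -0.63.

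Construct C, nearest to Tll1, a tolloid-like metalloprotease, had 32.04 and 22.43 normalized reads in the CCI rats and 63.39, 89 and 59.14 in the naive rats (-1.34 ± 0.29, limma adjusted p = 0.00436). Its 9 neighbors had a median difference of -0.00. Construct D, nearest to Slc1a3, the glial glutamate transporter GLAST, had 16.02 and 12.82 against 46.40, 40 and 34.83 (-1.42 ± 0.32, limma adjusted p = 0.00831). Both stayed called with the window median removed, at -1.02 and -1.29.

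The accessible region that construct E shares in part had 9.35 and 16.48 normalized reads in the CCI rats and 4.25, 4 and 1.31 in the naive rats, that is 14, 36, 13, 4 and 2 reads. The groups did not overlap, but the log2 fold change of 1.78 ± 0.73 was not called (limma adjusted p = 0.218). The libraries are shallow at this region, and its SE was the largest of the 5 cloned regions.

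**Figure D5:**
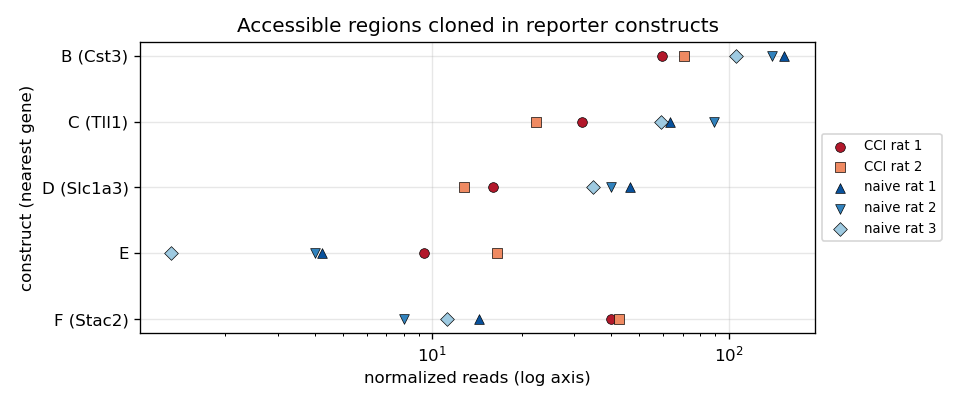
Normalized reads (x axis, log scale) in each rat for the 5 accessible regions in short H3K4me1 regions that overlap reporter constructs B to F (y axis). The CCI rats lie below all naive rats for B, C and D and above them for E and F.

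Gene lists for the ganglion gave few regions. The lists held 148 genes, and 8 of them were the nearest gene of a region with a name in the annotation used here, which names 462 of the 24565 regions, 441 of them called. A gene missing from this count may therefore have regions without a call. Over the 8 genes there were 10 named regions, of which 5 were called higher and 4 lower. The annotation covers only regions that the study listed as differing between these same libraries. That a named region was called, and in which direction, is thus not independent evidence. These counts have no background over all regions fitted.

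Genes of the injury response gave 4 named regions, all called higher, under the same limit. Socs3, a feedback inhibitor of JAK-STAT signaling, had 2: at chr10:107084627-107085069 the values were 32.04 and 26.10 normalized reads in the CCI rats against 6.86, 15 and 8.54 in the naive rats (1.49 ± 0.39, limma adjusted p = 0.0332), and at chr10:106947836-106948483 they were 133.51 and 119.03 against 57.50, 87 and 59.14 (0.91 ± 0.27, limma adjusted p = 0.0619). Lif, a cytokine of the interleukin-6 family, had 91.45 and 79.20 against 39.86, 38 and 56.51 (0.93 ± 0.28, limma adjusted p = 0.0687). Hspb1, the small heat shock protein HSP27, had 68.09 and 70.50 against 40.51, 47 and 30.88 (0.82 ± 0.28, limma adjusted p = 0.137). In each the CCI rats were above all naive rats. With the 1 Mb window median removed none of the 4 was called, with unadjusted limma p from 0.0797 to 0.343. Without CCI rat 1, 1 of the 4 stayed called, the second Socs3 region. The Hspb1 region was called in 1 of the 5 fits that left out a library, and the Socs3 and Lif regions in 4 each. Socs3 and Hspb1 lie on chromosomes 10 and 12, the chromosomes with the largest medians.

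Vgf, a neuropeptide precursor, gave 1 higher region on chromosome 12, with 100.80 and 65.47 normalized reads in the CCI rats and 25.81, 54 and 46.00 in the naive rats (limma adjusted p = 0.0496). It was not called with the window median removed or without CCI rat 1.

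Of the lower regions of the lists, 3 are described here. Etv1, a transcription factor of sensory neuron subtypes, had 2 named regions, of which 1 was called. The called Etv1 region had 35.38 and 32.96 normalized reads in the CCI rats and 59.14, 65 and 78.20 in the naive rats (-0.95 ± 0.28, limma adjusted p = 0.0676). Ednrb, an endothelin receptor from the list for satellite glia and Schwann cells, had 18.69 and 32.96 against 72.53, 61 and 52.57 (-1.27 ± 0.29, limma adjusted p = 0.00844). Cdh5, the endothelial VE-cadherin, had 42.05 and 36.17 against 63.71, 67 and 86.74 (-0.86 ± 0.28, limma adjusted p = 0.101). These 3 stayed called with the window median removed, at -0.85, -1.42 and -1.08, and without CCI rat 1. The Cdh5 region was called in only 3 of the 5 fits that left out a library, and those at Etv1 and Ednrb in all 5. No region of the lists of injury transcription factors, immune cells or fibroblasts and mural cells had a name, so nothing can be said of them here.

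Several genes had more than 1 called region. Of 35 such genes, 34 had their regions called in the same direction, 9 higher and 25 lower. Tgfbr2 had 3 higher regions (0.93 to 1.41) and Tgds, a dehydratase-family gene, 3 lower ones (-1.51 to -0.89). The lower group held Nkx2-2, a homeobox gene of the ventral neural tube (-1.47 and -0.72), Smarca2, an ATPase of the SWI/SNF remodeling complex (-1.34 and -0.71), and Pcdh17, a protocadherin (-1.73 and -1.27). The exception was Rn5-8s, a ribosomal RNA gene with many copies, whose reads may be split among them (-2.43 and 0.99). These genes were picked after their values were seen. Names come only from the study's lists of regions that differed between these libraries, and agreement was not counted over all regions fitted. Regions of 1 gene can also lie far apart, as at chr8:124604824 and chr8:125297706 for Tgfbr2. The agreement is therefore not read as a result about the genes.

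Called regions less than 100 kb apart formed 81 clusters with 177 regions, and 77 clusters ran in 1 direction, 50 higher and 27 lower. With the 1 Mb window median removed, only 1 of the 50 higher clusters still held a called higher region, against 24 of the 27 lower ones. The window median removes a shift that spans a cluster, and over all regions fitted it also moved the calls to lower. Clusters were not counted over all regions fitted, so these counts have no background. The cluster with the most regions held 5 higher ones over 190 kb of chromosome 19 (0.86 to 1.32), and the median over these regions of their window's difference was 0.62.

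At listed promoters, 6 of these accessible regions were called, 2 higher and 4 lower, and they are named here after their values were seen. The list is the study's own and holds only promoter regions that differed between these same libraries. Being called, and in which direction, is thus not independent evidence. Promoters without a difference are missing from the list, so these counts have no background. The region at Zfp317, a zinc finger gene, had 62.08 and 58.14 normalized reads in the CCI rats and 120.56, 120 and 124.85 in the naive rats. The naive rats were close together and all well above the CCI rats (-1.01 ± 0.26, limma adjusted p = 0.0327). The region at Mei4, a gene of meiotic recombination, had 48.06 and 32.05 against 61.10, 81 and 65.71 (-0.79 ± 0.28, limma adjusted p = 0.142). The region that the study's annotation assigns to Atn1, at chr9:20263988-20264643, had 56.74 and 29.30 against 21.89, 15 and 21.03 (1.06 ± 0.33, limma adjusted p = 0.0813). It was not called without CCI rat 1, and its name rests on that annotation alone. The others were at RGD1309291 (-1.06 ± 0.28) and LOC689081 (-1.42 ± 0.29), which were lower, and RGD1562229 (0.92 ± 0.30), which was higher. With the 1 Mb window median removed, those at Mei4, Atn1 and RGD1562229 were not called, and that at RGD1562229 was not called without CCI rat 1 either. The region at Mei4 was called in 2 of the 5 fits that left out a library.

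The promoters of Zfp317 and Mei4 are printed, the 2 of the 6 genes whose RefSeq promoter sequence was taken here. Of the pair, only the Zfp317 region stayed called under each library left out. Each is the 250 bases before the gene's start on the plus strand, from the GRCr8 assembly rather than rn6, and capitals mark every CG dinucleotide. Zfp317 had 11 CG and 41.2% GC, and Mei4 had 15 CG and 64% GC. Over 33469 RefSeq promoters of this length the medians were 5 CG and 51.2% GC, and 68.5% and 76.2% of them had as many CG or fewer. How these stretches align with the rn6 accessible regions was not analysed here.
Zfp317 promoter: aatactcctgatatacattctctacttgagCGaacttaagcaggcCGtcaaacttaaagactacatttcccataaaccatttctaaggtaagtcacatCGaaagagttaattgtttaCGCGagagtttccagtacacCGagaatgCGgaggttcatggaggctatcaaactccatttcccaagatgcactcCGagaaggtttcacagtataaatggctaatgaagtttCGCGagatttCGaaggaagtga
Mei4 promoter: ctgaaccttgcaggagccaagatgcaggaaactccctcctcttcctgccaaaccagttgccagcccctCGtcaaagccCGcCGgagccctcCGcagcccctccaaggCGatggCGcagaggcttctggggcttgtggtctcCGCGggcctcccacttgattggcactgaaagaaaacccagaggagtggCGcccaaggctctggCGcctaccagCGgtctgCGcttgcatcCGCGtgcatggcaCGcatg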

How the data were processed

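ATAC-seq was measured in 2 CCI and 3 naive rats. The authors aligned reads to rn6 with Bowtie2, removed duplicates and reads of low mapping quality, shifted reads for the Tn5 footprint and called peaks with MACS2. H3K4me1 peaks were called by group on pooled duplicates and merged, and the deposited list holds positions only, with start and end used as an other measure. The deposited ATAC-seq signal is reads divided by a size factor per library. Whole reads were recovered from its steps in 100% of values (relative tolerance 0.01%, rounding tolerance 0.005), and naive rat 2 was deposited as counts (factor 1).

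Values were tested on log2(value + 1) with limma 3.58.1 (R 4.3.3, eBayes with a trend) over the 58445 accessible regions that overlap H3K4me1, with no covariate, and adjusted by Benjamini-Hochberg over all of them. Values per rat were compared by a two-sided exact permutation test over the 5 rats. Exact permutation p-values compare these rats. With the trend, limma's SE and p follow the spread of regions of like mean signal. Rats that disagree at 1 region thus hardly widen its SE. In limma without a trend, 13 of the 39 named regions were no longer called and 1 became called. Intervals were not formed for single regions. In simulated data of the same size with 200 changed regions, limma called 47% of changes of log2 1 and 87% of log2 2, and 0.869% of unchanged regions. The simulated regions were drawn independently, with no shift shared by the regions of a library, chromosome or window. The 0.869% therefore does not give the share of false calls in the real data.

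The members and lists were chosen with earlier results of these data known. Regions named were the 10 lowest p in each direction (called, groups not overlapping, mean of at least 10 reads), those under reporter constructs, and called regions nearest to a listed gene, at most 4 per list. A called region of the lists is counted but not reported here. The regions at promoters and the genes with several calls were added after values were seen. Nearest genes came from the study's annotation of its listed regions, 435 by exact position and 27 by overlap. Of these 462 names 447 were found in RefSeq (GRCr8), 441 of them on the same chromosome as the region, so some names may be misplaced. Fold changes and p-values of the authors' own comparisons were not used. Motifs, base composition and start sites of the regions need an rn6 genome and were not analysed here.

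Alternatives were other pseudocounts (0.1, 10), a filter on the lowest 25% of means, median-of-ratios factors, removal of chromosome or 1 Mb window medians (chromosome medians for windows with fewer than 20 regions), a fit on all accessible regions, limma without a trend or with a replicate block, edgeR 4.0.16 and DESeq2 1.42.0 on recovered reads, other thresholds and length rules, and each library left out. Comparison within 5 bins of equal size by mean signal and median-of-ratios factors over all accessible regions, rather than the fitted ones, were added after the data were seen, as was the chromosome spread of each naive rat against the others.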

Additional observations from a re-analysis of the deposited data

How the results depend on the processing

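Depth limits the regions of low signal most, and with 2 against 3 rats no exact permutation test could pass 0.05. The number of regions called (1007, with 559 higher and 448 lower) moved by over 1.5 times in part under several settings, and the cause was not tested. Median-of-ratios factors over the fitted regions gave 350 higher and 1029 lower, and factors over all accessible regions 325 and 756. Removing the median of each 1 Mb window gave 148 and 987, and of each chromosome 184 and 919. DESeq2 called 366 (151 and 215). Fewer regions entered where H3K4me1 had to cover at least 50% of the region (651, with 343 higher) or be under 500 bp (432, with 226 and 206). An unadjusted p below 0.05 gave 3010 (1852 and 1158) and an adjusted p below 0.05 gave 151 (53 and 98). Leaving out each library gave 578 to 995 calls, 99 to 637 higher and 216 to 479 lower, the fewest higher without CCI rat 1 and the fewest lower without naive rat 1 (371 higher, 216 lower).

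The median log2 fold change (0.12) was -0.00273 and 0.0123 with the 2 sets of median-of-ratios factors, -0.0818 with windows and -0.0624 with chromosomes removed, and 0.0424 to 0.17 with each library left out, the lowest without CCI rat 1. The difference from broad regions (-0.03) was 0.0925 with windows removed and ran from -0.146 to 0.0905 with each library left out. That from mid-length regions (0.03) was -0.0873 within bins of signal and ran from -0.035 to 0.0928, and that from unmarked regions (-0.05) ran from -0.105 to 0.00466. The share of reads (-0.321 percentage points) ran from -0.637 to -0.00455, the last without CCI rat 1.

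The labels number the rats in both groups but do not say that a number is shared, and deviations from the group means correlated at -0.085 (rats 1) and -0.075 (rats 2). The fit with the replicate number as a block, in which naive rat 3 stands alone, called 642 (407 and 235). Of 647 values for the 39 named regions under all settings, 572 stayed on the same side of the threshold, 70 were no longer called, 5 became called and 0 changed sign.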
